A study of Mus musculus with 55 samples.

Results

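The genes described here are 9 genes that mark T and B lymphocytes, measured in 10 cell populations sorted from mouse liver. The T members were Cd3e, Cd3g, Cd4, Cd8a and Il7r, and the B members were Cd79a, Cd79b, Ms4a1 and Pax5. They were taken by symbol from 24478 symbols in the deposited table, and all 9 were found. Cd8a and Cd79b had 2 rows in the table, of which the row highest on average was taken.

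The study compared normal liver with liver after partial hepatectomy (PH, surgical removal of part of the liver) in mice of strain C57B/L6. Its 55 RNA-seq libraries, 27 normal and 28 PH, fall into 20 groups. The groups of blood cells, the population these genes turn on, held 2 libraries for normal and 2 for PH. Kupffer cells (KC, the resident macrophages of the liver) had 2 normal and 3 PH libraries, and Thy1 cells had 2 and 2. Sinusoidal endothelial cells (LSEC) had 3 and 5, endothelial cells (EC) 2 and 3, stellate cells (HSC) 2 and 3, and hepatocytes (HC) 4 and 4. Biliary cells (BEC) and clonal biliary cells (cBEC) each had 4 and 2, and non progenitor ducts (NPD) had 2 and 2. The labels give no genetic modification, no age and no time after surgery. They say neither how the gates were set nor whether animals were pooled. They also do not say that replicates came from separate animals, so p-values measure only the spread between these libraries, which may be technical.

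T lymphocytes recognise antigen through a receptor whose signalling chains include CD3 epsilon and CD3 gamma, with CD4 or CD8 as co-receptor, and naive and memory T cells receive survival signals through the interleukin-7 receptor, whose alpha chain is encoded by Il7r. B lymphocytes use membrane immunoglobulin with the paired signalling chains CD79A and CD79B, carry the surface protein CD20 (Ms4a1) and keep their lineage identity through the transcription factor PAX5. Both kinds of cell circulate in blood and also pass through and reside in the liver, so the transcripts mark lymphocytes in a blood sort and lymphocyte RNA in a sort of another cell.

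Coordinates of the members are those of the deposited table, whose build is mm9 per the submitters' processing notes. Cd3e (NM_007648, chr9:44806825-44817673) and Cd3g (NM_009850, chr9:44777654-44788514) lie on the minus strand of chromosome 9, 18311 bases apart. Cd4 (NM_013488, chr6:124814710-124838227, minus strand) and Cd8a (NM_001081110, chr6:71323420-71329165, plus strand) are on chromosome 6. Il7r (NM_008372) lies at chr15:9435913-9459631 on the minus strand. Among the B members, Cd79a (NM_007655) lies at chr7:25682529-25687216 on the plus strand and Cd79b (NM_001313939) at chr11:106172654-106175876 on the minus strand. Ms4a1 (NM_007641, chr19:11325092-11340641, minus strand) overlaps 4930526L06Rik on the other strand. Pax5 (NM_008782, chr4:44544377-44723312, minus strand) overlaps 5730488B01Rik and the microRNA gene Mir5120. How reads were assigned to strands is not given in the sources used here, so reads shared by overlapping genes cannot be told apart for these members.

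Promoter windows of RefSeq (build GRCm38.p6, from 250 bases before to 50 bases after the annotated start) were available for 6 of the 9 members, Cd3e, Cd3g, Cd8a, Il7r, Cd79a and Pax5. The 3 printed here are those that hold the E-box CAGGTG (or CACCTG on the other strand), the kind of site bound by the E proteins that act in early T and B cell development. They are written 5′ to 3′ on the gene's strand, with the E-box letters in capitals. The windows lie at chr9:45009562-45009861 (Cd3e, minus strand), chr9:44980382-44980681 (Cd3g, minus strand) and chr7:24897247-24897546 (Cd79a, plus strand) of that build.
Cd3e: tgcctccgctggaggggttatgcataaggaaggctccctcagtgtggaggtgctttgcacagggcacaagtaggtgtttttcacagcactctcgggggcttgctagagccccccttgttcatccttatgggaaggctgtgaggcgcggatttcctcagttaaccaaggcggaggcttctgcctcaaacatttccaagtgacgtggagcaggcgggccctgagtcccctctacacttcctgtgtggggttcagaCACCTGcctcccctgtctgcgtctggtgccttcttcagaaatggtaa
Cd3g: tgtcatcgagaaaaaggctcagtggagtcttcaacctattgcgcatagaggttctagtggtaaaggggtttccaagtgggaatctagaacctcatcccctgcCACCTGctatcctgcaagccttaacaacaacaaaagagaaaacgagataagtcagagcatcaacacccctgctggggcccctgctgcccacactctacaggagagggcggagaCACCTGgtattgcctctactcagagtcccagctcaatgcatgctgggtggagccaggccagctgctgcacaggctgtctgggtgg
Cd79a: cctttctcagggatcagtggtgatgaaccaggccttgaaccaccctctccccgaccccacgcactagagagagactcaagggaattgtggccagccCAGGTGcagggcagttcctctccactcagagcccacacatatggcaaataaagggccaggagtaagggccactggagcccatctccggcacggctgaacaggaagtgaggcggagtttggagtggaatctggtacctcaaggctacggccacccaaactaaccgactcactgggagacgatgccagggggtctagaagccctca
The Cd79a E-box began 154 bases before the start, the Cd3g boxes 148 and 35 bases before it, and the Cd3e box 3 bases after it. The same letters were in 20.2% of all 32851 windows of 300 bases, so 3 of 6 members is a description and nothing more. None of the 6 member windows held the octamer ATTTGCAT (1.74% of all windows), the EBF letters TCCCNNGGG (6.56%), the ETS core CCGGAAG (8.86%), the Ikaros-type letters TTTCCCA (8.06%) or the TCF/LEF letters CTTTGAT (3.73%), each searched on both strands. The windows are shown because the members moved together in the sorts, and no match says only that these letters are not in the window.

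Levels are in FPKM, which scales fragments to transcript length and library size, so levels of different genes can be set side by side. Summed FPKM lay between 624726 and 1203197 in each library, and the correlation of log2(FPKM + 1) between replicates ranged from 0.919 to 0.996. The read depth is unknown. In short transcripts, the smallest values corresponded to 0.0114 to 0.0119 FPKM times kilobase in the normal blood libraries and to 0.0374 to 0.0584 in the PH blood libraries, an approximate grain of the data. The PH blood libraries were therefore the coarser of these 4.

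The blood label was checked against marker lists before the members were read, because the 2 PH blood libraries also carried Kupffer cell transcripts. All 10 genes of the Kupffer list were higher in PH blood than in normal blood, and their summed level was 964 to 1398 FPKM in normal blood and 14205 to 24372 FPKM in PH blood. In the KC sort itself that sum was 21178 to 23134 FPKM in normal and 38782 to 40462 FPKM in PH libraries. The scavenger receptor gene Marco was 5.49 and 13 FPKM in normal blood and 2823 and 4759 FPKM in PH blood, and Cd5l, which encodes a secreted macrophage protein, rose from 129 and 222 to 3236 and 6454 FPKM. Of the endothelial list, 8 of 8 genes were also higher, with a summed level of 688 to 794 FPKM in normal and 2221 to 5008 FPKM in PH blood. Cdh5, the endothelial cadherin, went from 17.8 and 16.8 to 472 and 351 FPKM. Hemoglobin, the main transcript of red cells, was low, with Hbb-b1 between 9.75 and 30.7 FPKM in the 4 libraries. Without normal blood 1, 2 of the 10 Kupffer and 1 of the 8 endothelial genes passed, and without normal blood 2, 8 and 1, with every change still positive. The part that the Kupffer and endothelial transcripts play in the falls given below was not tested.

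All 9 members fell in the blood sort after PH, and both PH libraries lay below both normal libraries for each of them. The fall of the group means ran from 4.06-fold for Pax5 to 48.5-fold for Cd3e. Over all 12819 genes tested in blood, 39.7% were called lower and 24.3% higher, and 52% lay lower in both PH libraries, so being called lower or not overlapping was common in this comparison. The median log2 change was -4.39 for the 5 T members and -4.12 for the 4 B members, against -0.31 for all genes tested. In bulk libraries, fewer lymphocytes in the sort and less of these RNAs per cell cannot be told apart.

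**Figure D1:**
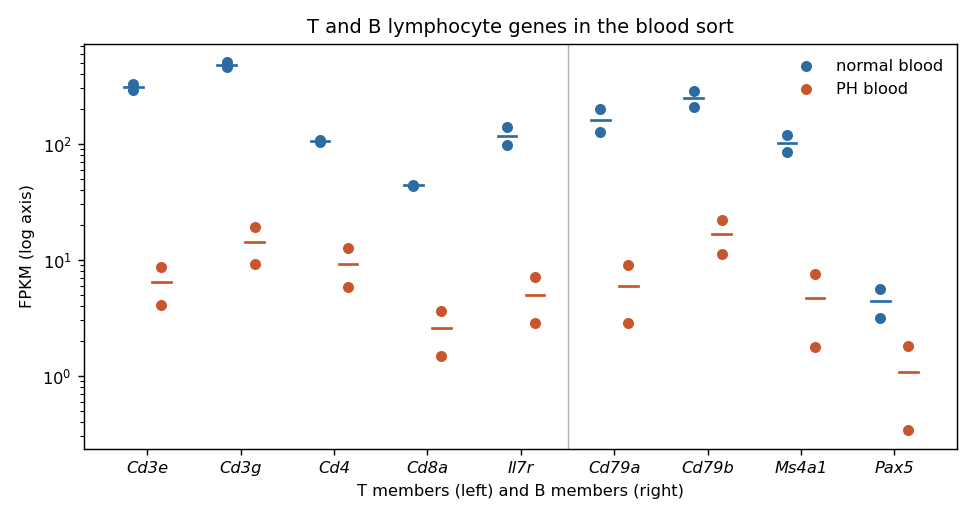
Level of each member in the blood sort, in FPKM on a log axis, with a point for each library and a bar for the mean of the 2 libraries of each group. For all 9 members both PH points lie below both normal points; the narrowest gap is at Pax5, where the lower normal library was 1.72 times the higher PH library.

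The receptor chains of T cells showed the largest falls. Cd3e was 294 and 327 FPKM in the normal blood libraries and 4.10 and 8.68 FPKM in the PH libraries. The log2 change was -5.47 (SE 0.33, adjusted p = 0.00086 by limma over all genes tested). Cd3g was 459 and 503 FPKM in normal and 9.25 and 19.1 FPKM in PH blood, a 33.9-fold lower mean (log2 change -5.07, SE 0.35, limma adjusted p = 0.000984). The lower normal library was 33.8 times the higher PH library for Cd3e and 24.0 times for Cd3g.

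The co-receptors fell less on the log2 scale. Cd4 was 104 and 107 FPKM in normal blood and 5.78 and 12.7 FPKM in PH blood (log2 change -3.46, SE 0.36, limma adjusted p = 0.00198). Cd8a was 44.2 and 43.4 FPKM in normal blood and 1.5 and 3.62 FPKM in PH blood (log2 change -3.72, SE 0.33, limma adjusted p = 0.00146). Their falls were 11.4-fold and 17.1-fold. The ratio of Cd4 to Cd8a was 2.34 and 2.47 in normal blood and 3.87 and 3.51 in PH blood, and that of Cd4 to Cd3e was 0.353 and 0.327 in normal and 1.41 and 1.46 in PH blood. Cd4 was thus higher relative to Cd3e and Cd8a in both PH libraries; these ratios were not tested, since 2 libraries against 2 cannot go below an exact two-sided permutation p of 0.33.

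Il7r was 96.8 and 138 FPKM in normal blood and 2.84 and 7.06 FPKM in PH blood. Its mean was 23.7-fold lower after PH (log2 change -4.39, SE 0.41, limma adjusted p = 0.00165), between the co-receptors and the CD3 chains.

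The signalling chains of the B cell receptor fell together but not equally. Cd79a was 198 and 126 FPKM in normal blood and 2.84 and 8.97 FPKM in PH blood, 27.4-fold lower (log2 change -4.68, SE 0.51, limma adjusted p = 0.00229). Cd79b was 288 and 206 FPKM in normal blood and 11.2 and 22.2 FPKM in PH blood, 14.8-fold lower (log2 change -3.86, SE 0.37, limma adjusted p = 0.00169). The products of these genes form a heterodimer, and the ratio of Cd79b to Cd79a was 1.45 and 1.64 in normal blood but 3.95 and 2.48 in PH blood. The KC sort, described below, had Cd79b with little Cd79a.

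Ms4a1, encoding CD20, was 120 and 85.0 FPKM in normal blood and 1.78 and 7.55 FPKM in PH blood (21.9-fold lower; log2 change -4.38, SE 0.57, limma adjusted p = 0.00338). Pax5 was the lowest member in every blood library, with 5.63 and 3.14 FPKM in normal and 0.34 and 1.82 FPKM in PH blood. Its log2 change was -1.43 (SE 0.45, limma adjusted p = 0.0431). Pax5 was not called with a pseudocount of 0.1 (limma adjusted p = 0.0647), without the filter (0.0822), with quantile normalization (0.0532), with a replicate block (0.0632) or without PH blood 1 (0.116).

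The calls leaned on both normal libraries. Without normal blood 1, 2 of the 9 members passed (Cd3e and Cd3g) and 1262 genes were called, against 8199 genes with all 4 libraries. Without normal blood 2, 3 members passed (those and Cd79b) among 1829 genes called. In each case the log2 changes stayed negative for all 9 members, and a lone library was assumed to vary like the other group. With both normal libraries kept, 8 members passed without PH blood 1 (Pax5 did not) and 9 without PH blood 2.

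The ratio between the 2 normal blood libraries separated T from B members, and that between the 2 PH blood libraries did not. In normal blood, the second library held 0.982 to 1.43 times the level of the first for the T members, and 0.557 to 0.715 times for the B members. The summed level of the 5 T members over that of the 4 B members was 1.63 and 2.67 in the normal blood libraries and 1.45 and 1.26 in the PH blood libraries. In PH blood, the second library was higher for all 9 members, by 1.98 times (Cd79b) to 5.39 times (Pax5). The T and B sums were 23.5 and 16.2 FPKM in PH blood 1 and 51.2 and 40.6 FPKM in PH blood 2, so neither PH library came near the 997 and 611 FPKM, or 1118 and 419 FPKM, of the normal libraries.

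**Figure D2:**
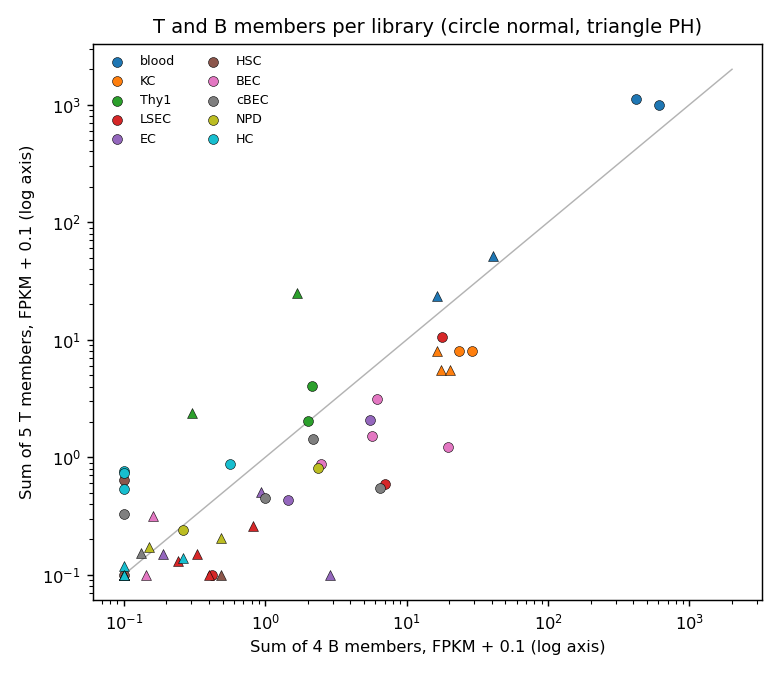
Summed FPKM of the 4 B members (horizontal) and of the 5 T members (vertical) in each of the 55 libraries, both with 0.1 added and on log axes, circles for normal and triangles for PH; the grey line marks equal sums. The 4 blood libraries lie above the line at the upper right, PH Thy1 1 stands well above it at a ratio of 15.9, and the 5 KC libraries lie below it at 0.267 to 0.493.

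Other genes of the T and B lineages moved with the members. Of a wider list of 25 T cell genes, 24 fell in PH blood and 1 did not pass, with a median log2 change of -4.59. The largest falls were those of Lck, the kinase of the T cell receptor (433 and 555 FPKM in normal, 9.32 and 14.9 in PH; log2 change -5.26), and of Ccr7, a homing receptor of naive lymphocytes (158 and 205 FPKM in normal, 2.08 and 6.23 in PH; log2 change -5.26). The adhesion gene Cd2 (log2 change -5.18) and the adaptor Skap1 (-5.08) followed. S1pr1, the sphingosine-1-phosphate receptor through which lymphocytes leave tissue, was the gene that did not pass, with 95.8 and 137 FPKM in normal blood and 114 and 33.3 FPKM in PH blood (limma adjusted p = 0.256). S1pr1 was also at 79.9 to 150 FPKM in normal LSEC and 187 to 317 FPKM in PH LSEC, where the T members were at or near 0 apart from the library normal LSEC 2.

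Of 23 wider B cell genes, 20 fell, 1 rose and 2 did not pass, with a median log2 change of -3.53. Fcmr, the IgM Fc receptor, fell by 4.98 on the log2 scale, Siglecg by 4.48 and Fcer2a, the low-affinity IgE receptor CD23, by 4.40. Cd55, a complement regulator, rose from 97.0 and 94.3 to 342 and 166 FPKM (log2 change 1.31, limma adjusted p = 0.0312) and was 436 to 661 FPKM in the 8 LSEC libraries. The genes that did not pass were Cd72, at 126 and 105 FPKM in normal and 74.9 and 99.4 FPKM in PH blood, and Bank1, at 56.4 and 44.1 FPKM in normal and 16.8 and 38.9 FPKM in PH blood. Without normal blood 1 the T list kept 17 falls among 25 and the B list 3 among 23, and without normal blood 2 these counts were 18 and 11, while the medians stayed between -3.15 and -4.58.

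Lymphocytes without these receptors and other leukocytes were read from further lists. All 10 NK cell genes fell (median log2 change -5.02), Nkg7 from 1266 and 1394 to 10.8 and 27.4 FPKM and the granzyme gene Gzma from 940 and 1004 to 13.2 and 26.4 FPKM. All 6 plasma cell genes fell (median -2.48), led in level by Jchain, the joining chain of IgM and IgA, at 680 and 414 FPKM in normal and 12.2 and 6.80 FPKM in PH blood, and Mzb1, at 179 and 95.6 and then 2.76 and 6.63 FPKM. Of 8 dendritic cell genes 6 fell (median -2.82), among them Siglech of plasmacytoid dendritic cells (778 and 437 FPKM, then 9.93 and 22.2) and Cd209a (227 and 134, then 5.71 and 7.25). Without normal blood 1, 9 of the NK genes, 2 of the plasma cell and 2 of the dendritic cell genes passed, and without normal blood 2, 9, 4 and 5. Neutrophil calls, given next, dropped to 5 in both cases.

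Myeloid lists did not move one way. Of 10 neutrophil genes 8 fell (median -2.35), S100a8 from 1909 and 1568 to 909 and 365 FPKM, while S100a9 did not pass at 1355 and 1182 FPKM in normal and 1238 and 477 FPKM in PH blood (limma adjusted p = 0.248). Of 8 monocyte genes 3 rose (Fn1, Vcan and Treml4, the last from 24.3 and 28.1 to 180 and 223 FPKM) and 2 fell. Those that fell were Ly6c2, from 902 and 594 to 25.8 and 26.7 FPKM, and the chemokine receptor gene Ccr2, from 226 and 208 to 31.3 and 36.2 FPKM. Over all genes tested in blood, 24.3% were called higher and 39.7% lower, so nothing is read from the monocyte counts as a list. Of 8 platelet genes, 3 could be tested and 2 were called higher. Pf4 rose from 5.54 and 7.47 to 119 and 211 FPKM. Ppbp, at 0.0909 and 0.610 and then 5.85 and 28.5 FPKM, reached the filter only through the PH libraries, so nothing is read from its call. Without the filter, 7 were tested and 3 called higher. Of these 7 changes, 4 were above 0 and 3 below, with a median of 0.44 against 3.42 with the filter. The platelet list summed to 8.71 to 12.3 FPKM in normal blood and 132 to 245 FPKM in PH blood. In the KC sort the same sum was 62.9 to 95.4 FPKM in normal and 109 to 239 FPKM in PH libraries. The part of Kupffer transcripts in this rise was not tested.

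Lists of the other liver cells were low or mixed in blood. None of the 5 erythroid genes tested passed at an adjusted p under 0.05 in limma (Hbb-b1 and Hbb-bs both had a log2 change of -0.05). Of the 8 hepatocyte genes none could be tested, and Tat and Cps1 were listed at 0 in 3 of the 4 blood libraries and at 22 and 14.9 FPKM in PH blood 1. Of 4 biliary genes tested, Epcam fell (4.68 and 5.60, then 1.63 and 0.739 FPKM) and Spp1 did not pass (26 and 92, then 145 and 485 FPKM, limma adjusted p = 0.0539). The keratin gene Krt7, named after its values were seen, was at 0.145 and 0.549, then 2.94 and 1.11 FPKM. Krt7 reached the filter only through the PH libraries, so its higher level after PH was fixed by the filter. Nothing is read from its call (limma adjusted p = 0.0472). In the stellate and mesenchymal list 2 of 8 genes rose (Des and Col1a1, none of whose values exceeded 7.26 FPKM). Dcn (77.1 to 139 FPKM over the 4 libraries) and Thy1 (10.7 to 23.2 FPKM) did not pass. With 24.3% of all genes called higher in blood and 39.7% lower, nothing is read from the biliary and stellate counts as lists.

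**Figure D3:**
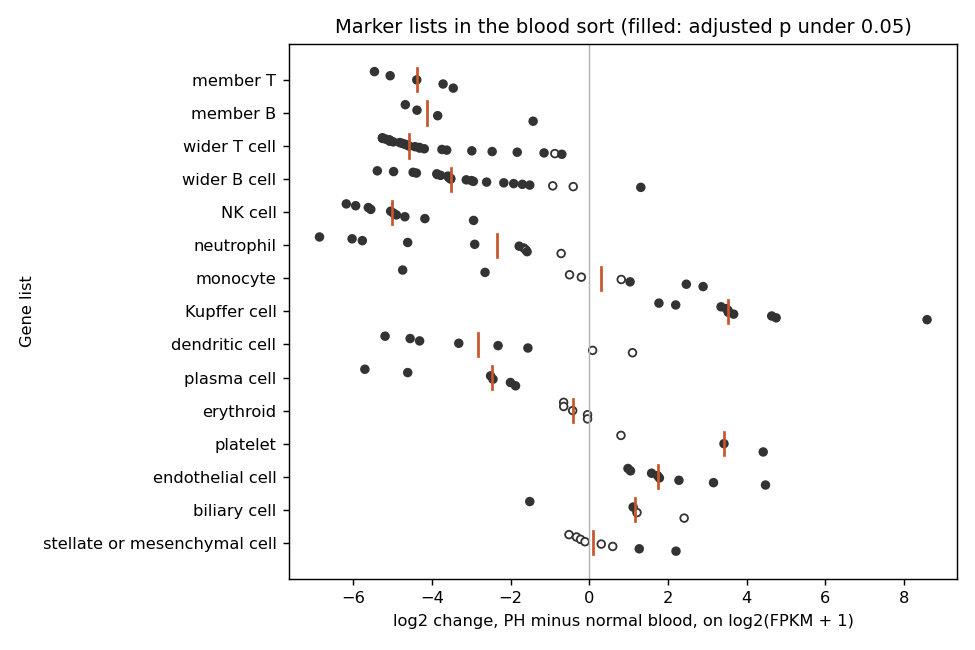
Log2 change in the blood sort, PH minus normal on the log2(FPKM + 1) scale, for every tested gene of each list; filled points have a limma adjusted p under 0.05 and the orange bar is the list's median. The T, B, NK, plasma and dendritic cell lists lie mostly to the left of 0, and the Kupffer and endothelial lists lie to the right.

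Outside blood the members were low, and normal blood stood above every other normal population for every member. The single fit of all 20 groups called 81 of 81 comparisons of normal blood with another normal population higher in blood. Cd8a reached the filter of this fit only through blood libraries (highest value elsewhere 0.969 FPKM, in PH Thy1 1), so nothing is read from its calls in this fit. Of all 16527 genes, 26.3% were called higher in normal blood than in KC, 32.3% than in LSEC, 29.2% than in EC, 35.2% than in HSC, 26.2% than in Thy1, 27.8% than in BEC, 28.8% than in cBEC, 30.1% than in NPD and 52.1% than in HC. The log2 differences ran from 1.59 (Pax5 against LSEC) to 8.86. In PH blood, 76 of 81 were higher in blood. The background after PH was 11.9% of all genes against KC, 14.2% against LSEC, 13.1% against EC, 24.2% against HSC, 8.97% against Thy1, 19% against BEC, 18.9% against cBEC, 14.8% against NPD and 48.7% against HC. The single fit shares its spread with groups that lie near 0 for these genes. With only the 2 groups compared in the fit (an alternative chosen after seeing the data), 61 of the PH comparisons were called and Pax5 could not be tested. A member under 1 FPKM throughout the other sort then reached the filter only through PH blood. Its direction was fixed by the filter, so nothing is read from such a call.

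**Figure D4:**
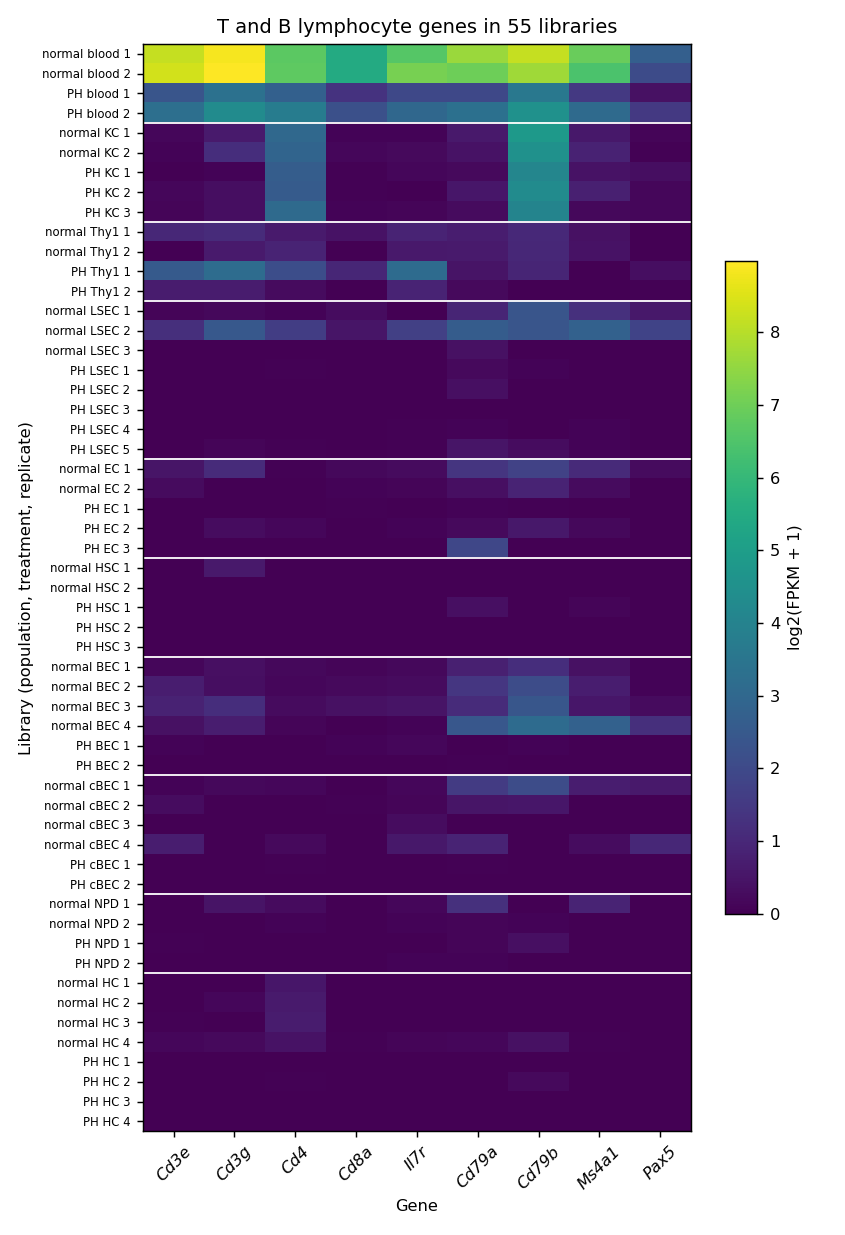
Level of the 9 members in all 55 libraries, as log2(FPKM + 1) by colour; rows are libraries ordered by population, treatment and replicate, and white lines part the populations. The normal blood libraries are brightest for all 9 members, PH blood is next for most, the KC libraries are bright mainly at Cd4 and Cd79b, and the isolated bright rows are normal LSEC 2, normal BEC 4 and PH Thy1 1.

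Kupffer cell libraries carried 2 of the members at 4.96 FPKM or more in every library and the other 7 at low levels. Cd79b was 27.8 and 22.1 FPKM in normal KC and 16.5, 18.9 and 15.7 FPKM in PH KC, which is 10.1% and 6.91% of the mean of normal blood. Cd4 was 7.16 and 6.42 FPKM in normal KC and 5.25, 4.96 and 7.51 FPKM in PH KC, or 6.45% and 5.61% of normal blood. None of the other 7 members exceeded 1.25 FPKM in any KC library.

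The partner genes did not come along with them. The ratio of Cd79b to Cd79a was 41.6 to 92.8 over the 5 KC libraries, far from the 1.45 and 1.64 of normal blood, and Cd4 was 39.1 to 129 times Cd3e in the 4 KC libraries where Cd3e was above 0. In PH KC 1, Cd3e was listed at 0. Cd79b and Cd4 in KC were therefore not in the proportions of normal blood.

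The wider B list was likewise split in KC, with the following genes named after their values were seen. Of its 23 genes, 5 were at 10 FPKM or more in all 5 KC libraries: Cd72 (94.9 to 186 FPKM), Bank1 (48.7 to 78.7), Cd37 (40.5 to 86.7), Cd55 (32.1 to 206) and Cd22 (16.7 to 21.9). No value of the other 18 exceeded 6.78 FPKM, and Fcmr did not exceed 0.796 FPKM. Cd72 and Bank1 were the B list genes that did not pass in blood. Of the wider T list, only Icos was at 10 FPKM or more in all 5 KC libraries (21.1 to 27.0 FPKM). Foxp3 was 3.71 to 7.26 FPKM in KC, and S1pr1 was 32.3 and 29.2 FPKM in normal KC and 1.02 to 7.58 FPKM in PH KC.

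The KC levels of Cd79b and Cd4 did not pass a test between treatments. All 3 PH KC libraries lay below both normal KC libraries for Cd79b (log2 change -0.52, SE 0.16, limma adjusted p = 0.0528, with 36.8% of 11835 genes called in KC). Without PH KC 3, a library grouped by its title because it has no cell type tag, the change was -0.46 with a limma adjusted p of 0.0399. For Cd4 the groups overlapped (log2 change -0.19, SE 0.22, limma adjusted p = 0.523). Quantile normalization moved the median of all KC genes from -0.04 to 0.09 and that of blood from -0.31 to -0.15; in KC it raised the share of calls that were higher, from 1975 against 2375 lower to 2513 against 2044 lower.

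Between the PH sorts of blood and KC, Cd79b and Cd4 were near each other. PH blood minus PH KC was -0.10 on the log2 scale for Cd79b (SE 0.49, adjusted p = 1 in the single limma fit) and 0.50 for Cd4 (SE 0.32, adjusted p = 0.397). Pax5 was also not called, at 0.74 (SE 0.31, adjusted p = 0.116). The other 6 members were higher in PH blood than in PH KC, by 1.70 (Cd8a) to 3.60 (Cd3g). With only these 2 groups in the fit, 5 of them passed and Ms4a1 did not. All 6 reached the filter of that fit, and Cd8a also that of the single fit, only through blood, so nothing is read from those calls. The Kupffer list was high in both of these sorts, as given above, and its part in the level of Cd79b and Cd4 in PH blood was not tested.

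**Figure D5:**
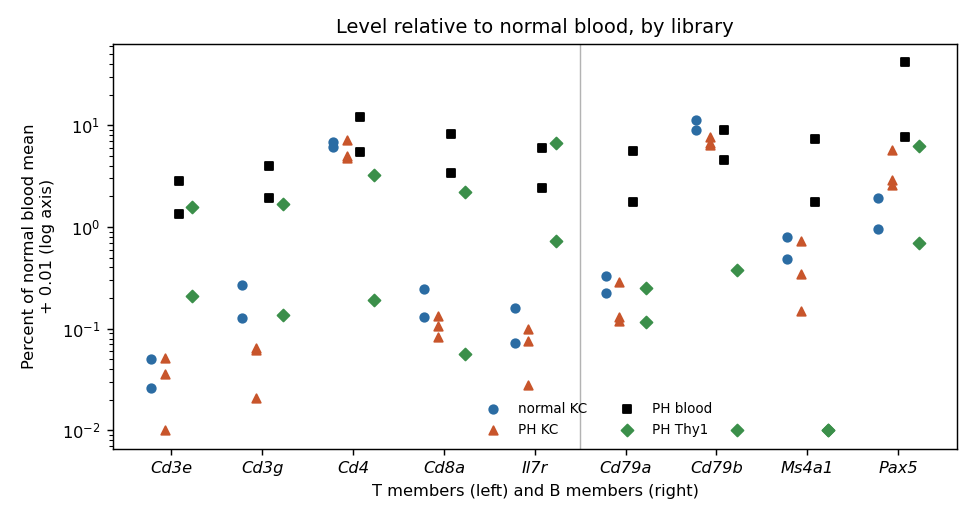
Level of each member in each KC, PH blood and PH Thy1 library as a percent of the mean of the 2 normal blood libraries, with 0.01 added, on a log axis. Cd4 and Cd79b reach 4.71% to 11.2% in KC, while Cd3e, Cd3g, Cd8a and Il7r reach at most 0.259% and Cd79a and Ms4a1 at most 0.788%. Pax5, the lowest member in normal blood, lies at 0.942% to 5.74% in KC, which overlaps the range of Cd4 and Cd79b. In PH Thy1 the T members of the 2 libraries lie far apart.

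The THY1 protein, after which the Thy1 sort is named, is carried by mouse T cells as well as by some fibroblasts. The library PH Thy1 1 had Cd3e at 4.82, Cd3g at 8.01, Cd4 at 3.39, Cd8a at 0.969 and Il7r at 7.84 FPKM. In PH Thy1 2 the same genes were at 0.63, 0.605, 0.192, 0.0202 and 0.837 FPKM, and in normal Thy1 none exceeded 1.15 FPKM. PH Thy1 1 was the higher library for all 5 T members, while no B member exceeded 0.908 FPKM in it.

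The T to B ratio of PH Thy1 1 was 15.9, against 1.94 and 1.03 in the normal Thy1 libraries and 1.26 to 2.67 in blood. PH Thy1 2 also had more T than B signal, with sums of 2.28 and 0.202 FPKM, both low. Of the 25 wider T genes, 18 were higher in PH Thy1 1 than in all 3 other Thy1 libraries, as were 6 of the 23 wider B genes and 21.6% of the 13389 genes tested in this sort; the library was singled out for its T members. The NK list summed to 17.4 FPKM in PH Thy1 1 and 1.81 FPKM in PH Thy1 2. The T sum of PH Thy1 2 lay within the 1.95 to 3.94 FPKM of the normal Thy1 libraries, and no member was called between PH and normal Thy1 cells, where 1 gene of 13389 (0.00747%) passed and 2417 had an unadjusted p under 0.05 in limma. Cd3g was the only member that could be tested there (log2 change 1.05, SE 0.85, limma adjusted p = 0.544).

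PH blood exceeded PH Thy1 for 7 of the 9 members in the single fit, but only for Cd79b when the fit held those 2 groups alone. Cd79b reached the filter of that smaller fit only through PH blood, so nothing is read from its call there. Il7r was nearest, at 2.84 and 7.06 FPKM in PH blood and 7.84 and 0.837 FPKM in PH Thy1 (log2 difference 0.47, SE 0.39, adjusted p = 0.514 in the single limma fit).

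In the remaining populations the members reached 1 FPKM in some libraries, most of them normal. Outside blood and KC, 10 of 23 normal libraries and 2 of 23 PH libraries had any member at 1 FPKM or more. The highest single values were 7.87 FPKM in the normal libraries (Cd79b in normal BEC 4) and 8.01 FPKM in the PH libraries (Cd3g in PH Thy1 1). Of all 459 member values outside blood, 223 were listed at 0 and 45 were at 1 FPKM or more, and 7 of the 51 libraries had all 9 members listed at 0.

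In the endothelial sorts the members differed widely between normal replicates. In normal LSEC 2 all 9 members were above their level in the other 2 normal libraries, with Ms4a1 at 5.96, Cd79a at 5.07, Cd3g at 4.49, Cd79b at 4.19 and Pax5 at 2.51 FPKM. In normal LSEC 1 Cd79b was 4.12 and Ms4a1 1.35 FPKM, and in normal LSEC 3 Cd79a (0.321 FPKM) was the only member above 0. None of the 5 PH LSEC libraries had a member above 0.411 FPKM. The low values kept all members out of the LSEC test, in which 8.46% of 11501 genes were called. Without normal LSEC 3, Cd79b (log2 change -2.29) and Ms4a1 (-1.98) reached the filter, but only through the other 2 normal libraries, so their lower level after PH was fixed by the filter and nothing is read from those calls. In EC the highest value was Cd79a at 2.77 FPKM in PH EC 3, a library where Cd79b was listed at 0; in normal EC 1 Cd79b was 2.44 and Cd79a 1.64 FPKM. Cd79a did not pass in EC (log2 change -0.14, limma adjusted p = 0.957), where 3 of 12064 genes did (0.0249%).

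In most normal libraries of the biliary sorts the B members summed higher than the T members. The same held in every normal LSEC, EC and KC library, so it was not particular to the biliary sorts. Normal BEC 4 had Cd79b at 7.87, Ms4a1 at 5.88, Cd79a at 4.38 and Pax5 at 1.30 FPKM, with no T member above 0.655 FPKM and a T to B ratio of 0.0574. The other 3 normal BEC libraries had Cd79b at 1.24, 3.23 and 4.30 FPKM. In the 2 PH BEC libraries no member exceeded 0.109 FPKM. Neither Cd79b (log2 change -2.16, SE 0.48, limma adjusted p = 0.0653) nor Cd79a (log2 change -1.40, SE 0.43, limma adjusted p = 0.160) passed. In BEC, 1.81% of 12851 genes were called. Both genes reached the filter only through the normal libraries, so their lower level after PH was fixed by the filter. Nothing is read from these tests or from the alternatives in which Cd79b passed (limma adjusted p = 0.0109 with a pseudocount of 0.1). In cBEC, normal library 1 had Cd79b at 3.25 and Cd79a at 1.97 FPKM, normal library 4 had Pax5 at 0.985 FPKM, and no member exceeded 0.042 FPKM after PH. For PH cBEC 1 the title and the treatment tag disagree (the tag says normal), and the title was followed.

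Stellate cells, ducts and hepatocytes carried little of any member. In HSC the highest value was Cd3g at 0.543 FPKM (normal HSC 1), and in NPD it was Cd79a at 1.38 FPKM (normal NPD 1). In HC no member exceeded 0.59 FPKM. That value was Cd4, which was at 0.44, 0.55, 0.59 and 0.37 FPKM in the normal hepatocyte libraries and at 0, 0.04, 0.02 and 0 FPKM after PH. Cd4 was under the filter in HC and was called only when the filter was dropped (log2 change -0.55, limma adjusted p = 0.00558). No member reached the filter in HSC, NPD, cBEC or HC, where 0.00853%, 15.2%, 0.0681% and 6.19% of the genes tested were called.

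The change in blood was also set against the change in each other sort. For 64 of the 81 comparisons of a member with a population, the member's mean in the other sort was under 1 FPKM in both treatments, so the difference largely restates the blood change (for Cd3e against HSC, where it was listed at 0, it is that change). All 81 share the same 4 blood libraries. In the single fit 77 of the 81 were called, all negative, which therefore adds little to the blood result. Of all genes, the share called lower was 19.4% against KC, HSC and HC, 16.8% against LSEC, 16.3% against EC, 14.6% against Thy1, 13.8% against BEC, 14.4% against cBEC and 20.1% against NPD. The comparisons not called were those of Pax5 with LSEC, BEC and cBEC and that of Cd79b with BEC (difference -1.70, SE 0.71, adjusted p = 0.0681). With a pseudocount of 0.1, 42 of the 81 were called. Against KC, the difference was -3.34 for Cd79b (SE 0.72, adjusted p = 0.000284) and -3.27 for Cd4 (SE 0.47, adjusted p = 3.37e-07), the members that both sorts carried.

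Across the 20 group means of log2(FPKM + 1), the members other than Cd4 and Cd79b had Pearson correlations with each other of 0.925 to 0.994. Cd4 and Cd79b had 0.950 with each other and 0.75 to 0.892 with the rest. Nearly all of this spread comes from blood against the other groups, whose libraries are shared by all genes, so these values describe the table and carry no test. Among 14009 other genes reaching 5 FPKM in a group mean, the nearest to Cd3e were Klrb1c (0.998), an NK cell receptor gene, Podnl1 (0.997) and Gimap7 (0.997). Nearest to Cd79a were Fcmr (0.992), Ccr7 (0.988) and Cxcr5 (0.987), the chemokine receptor of B cell follicles. The nearest genes to a T member thus included a gene of NK cells, whose list fell in blood beside the T list.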

How the data were processed

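RNA from 10 populations sorted into TRIzol was sequenced in 55 libraries. The authors deposited FPKM for 36141 transcript rows, per the name they gave the table. The submitters' processing notes list CASAVA 1.8.2, Bowtie 1.0.0 and the build mm9, with no roles given; the counting tool is not given in the sources used here. FPKM keep no read depth, so no counting intervals are given, and zeros are described as listed at 0. All 55 library columns matched a sample title, and groups follow the titles.

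A symbol with several rows was represented by its row of highest mean. Values were transformed to log2(FPKM + 1) and tested with limma 3.58.1 (R 4.3.3), two-sided, with trended, robust moderated variances and Benjamini-Hochberg adjustment over all genes tested (adjusted p under 0.05 is called passing). Log2 changes on this scale understate the change of low genes. Genes needed at least 1 FPKM in as many fitted libraries as the smaller group has. PH was compared with normal within each population; blood was compared with other populations, and responses with each other, in a single fit of all 20 groups. The members, the marker lists and these choices were made with earlier results of these data known. Of the lists, Ighm, Igkc and Ahsp were not found by symbol.

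Named genes were the members; from each wider T and B list the 4 largest passing changes and those that passed against the list's direction; from each other list the 2 with the highest blood mean; and the 3 most like Cd3e and Cd79a. A gene that met this rule is not reported here. S1pr1, Icos, Foxp3, Cd72, Bank1, Cd22, Cd37, Krt7, Des, Col1a1, Fn1, Vcan, Treml4 and the KC values of Fcmr and Cd55 were chosen after their values were seen. The alternatives were quantile normalization, a pseudocount of 0.1, summed rows, dropping the filter, upper-quartile scaling, a replicate block, a single fit, leaving out the cBEC library whose labels disagree and leaving out each library; the fit of only the compared groups was added after seeing the data. The fits were tested on simulated data in which 200 genes had a log2 change of 2. Of these, 102 were recovered among 12511 genes in the blood design, 158 among 11701 in the KC design and 178 among 14881 in the single fit of normal blood against normal KC. Figures were drawn with matplotlib 3.10.9.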

Additional observations from a re-analysis of the deposited data

Results flagged for a closer look

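In 3 cases a single library stood far from the others of its group. Cd79b was 3.25 FPKM in normal cBEC 1, against 0 to 0.472 FPKM in the other 3 libraries. In normal BEC 4, Ms4a1 was 5.88 FPKM against 0.318 to 0.652 FPKM and Pax5 was 1.30 FPKM against 0.0571 to 0.199 FPKM in the other 3. The check covered the 7 cases in which a member reached 1 FPKM in a group of 4 or 5 libraries. Cases were thus chosen for holding a high value, so a chance rate of about 1 case in 20 cannot be assumed for them. Ms4a1 and Pax5 were marked in the same library, so their cases are not separate events. Nothing is read from the count of 3, and the cause of the values in these cases was not tested.

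The change after PH in blood differed from that in another population, by a test of the difference in the single limma fit, for 9 members each against EC, HC, HSC, KC, NPD and Thy1, for 8 members each against cBEC and LSEC, and for 7 members against BEC. Where a member lay near 0 in the other sort, as for 64 of the 81 comparisons with both means under 1 FPKM, this difference restates the change in blood.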

How the results depend on the processing

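In blood, the log2 changes of the 9 members were negative in all 63 values from alternatives that kept every library, and 59 of these passed; the 4 that did not were all Pax5. Leaving out a library gave 36 further values, all negative, of which 22 passed. That left 2 to 9 members called and 1262 to 8683 genes called, with the low ends without a normal library. A lone library was then assumed to vary like the other group. Whether same-numbered libraries are paired is not known. Their deviations from the group means had an r of -0.05 in blood, and of -0.31, 0.50, -0.65 and 0.38 in HC. With 2 libraries a group the deviations mirror each other, so the check cannot decide on pairing in blood. The mixed signs in HC do not settle it either. With a replicate block, 8 members passed in blood (Pax5 did not) and 1 in BEC.

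Outside blood, calls moved as follows. The single fit called 3 members in LSEC (Cd79b, Ms4a1 and Pax5, lower), 2 in Thy1 (Cd3e and Il7r, higher) and 1 in BEC. In BEC a pseudocount of 0.1 called 2 (Cd79a and Cd79b) and summed rows 1 (Cd79b). Without a filter, 1 member (Cd4) was called in HC. Leaving out a library gave 0 to 1 member in KC, 0 to 2 in LSEC and 0 to 1 in BEC. Of the 81 comparisons with other populations, 56 to 78 were called in PH and 70 to 81 for responses when a library was left out, and 42 for responses with a pseudocount of 0.1. The cause of these moves was not tested.

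Signs changed for values that had not passed. Cd4 in KC was 0.058 with quantile normalization. PH blood minus PH KC ranged from -0.56 to 0.368 for Cd79b when a library was left out (high end without PH blood 1) and from -0.0073 to 1.01 for Cd4 (low end without PH blood 2). Depth could not be read from FPKM, so values under about 1 FPKM carry an unknown counting error.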

Other observations

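Chosen after their values were seen, the genes most like the 2 members carried by KC differed from those most like Cd3e and Cd79a. Over the 20 group means, Rgs14, a regulator of G protein signalling, had a Pearson correlation of 0.992 with Cd4. Its means were 79.1 FPKM in normal blood, 8.91 FPKM in PH blood, 6.88 FPKM in normal KC and 6.43 FPKM in PH KC. Nearest to Cd79b was Ms4a6b (0.974), with means of 279 and 22.2 FPKM in normal and PH blood and 31.1 and 19.8 FPKM in normal and PH KC. The transcription factor gene Irf4 (0.973) followed, at 15.2 and 3.36 FPKM in blood and 3.93 and 3.15 FPKM in KC. Fcmr, the nearest to Cd79a, had means of 124 and 3.08 FPKM in blood but 0.578 and 0.0616 FPKM in KC.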
